A study of Mus musculus with 102 samples.

Results

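The deposited region table for mouse embryonic stem (ES) cells lists, for each region, the chromatin proteins and histone marks found there by chromatin immunoprecipitation with sequencing (ChIP-seq). It holds 31 names, and 20 of them have libraries of 129/Ola ES cells in the sample labels. The remaining 11 names were taken by that rule alone: H3K4me2, SAP30, HDAC1, HDAC2, HBO1, TIP60, TRRAP, CHD1, PAF1, SF3B3 and CBP80. They make up 310889 of the 804207 entries, and the 17 labelled factors make up 364812. For 10 of the 11 names no library, antibody or cell line is given in the labels, so their origin is not given in the sources used here. H3K4me2 has 4 labelled libraries, all of R1 cells and none of 129/Ola cells, and whether these entered the region table is not stated.

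The study examined proteins that lie with monomethylated histone H3 lysine 4 (H3K4me1) at enhancers and their dependence on the mark. Its labels describe 102 libraries in 49 groups, among them the 129/Ola cells, which carry no listed mutation and were passaged feeder free before crosslinking. Peak tables of R1 cells (strain 129SV, grown on mouse embryonic fibroblast feeders without serum) compare MLL3/4 double catalytic dead cells with wild-type cells. In the catalytic-dead line the H3K4 methyltransferases MLL3 and MLL4 lack activity. The labels give 1 line for each genotype, and neither label says whether it is a single clone. The tables hold regions and no expression, so the labelled cell type could not be checked against marker genes.

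H3K4me1 marks enhancers and the flanks of promoters, H3K4me3 marks active and poised promoters, and H3K4me2 is found at both. SAP30, HDAC1 and HDAC2 are subunits of the SIN3 histone deacetylase complex. HBO1 and TIP60 are histone acetyltransferases of the MYST family, and TRRAP is a scaffold of the TIP60 and SAGA acetyltransferase complexes. CHD1 is a chromatin remodeller, and its human form binds H3K4me3 through its chromodomains. PAF1 belongs to a complex that travels with elongating RNA polymerase II. SF3B3 is a subunit of the SF3b splicing complex, and CBP80 is the large subunit of the nuclear cap-binding complex.

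The table covers 67697 regions (build mm9): 41819 with H3K4me1 and no H3K4me3, 18425 with both marks and 7453 with H3K4me3 alone. Median widths were 523, 1085 and 1505 bp. A name is listed at a region only with a log2 value of at least 0.585, which is a 1.5-fold level, and what that level is relative to is not stated. A name that is not listed was therefore below that limit or was not measured. Each name has 1 value per region, with no replicate values and no read depth, so no difference below could be tested against the spread between samples. Shares carry 95% Wilson intervals, which cover only the number of regions, and the number of chromosomes (of 20) with the same direction is given as a description.

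Before any result, 1 name stood apart from the rest. HBO1 was listed at all 17669 regions that listed BAF155, a subunit of the BAF remodelling complex, with 0 exceptions. Among the 406 pairs of graded names (the 11, the 17 labelled factors and H3K27ac) no other list lay wholly inside another. HBO1 had 12022 further regions without BAF155, so 59.5% of its regions listed BAF155. Where both were listed, the HBO1 and BAF155 log2 values had a Spearman correlation of 0.86, the highest of the 406 pairs, against 0.75 for the next pair, H3K4me2 with SAP30. No region had equal values. The HBO1 median log2 value was 1.06 at the shared regions, and the BAF155 median there was 0.98. HBO1 results therefore carry those of BAF155 with them, and the source of the HBO1 entries is not given in the labels.

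The first comparison asked how often each name occurs at H3K4me1-only regions relative to H3K4me3-only regions. All 11 names were listed less often in the H3K4me1-only class, each on 20 of 20 chromosomes. A region listed on average 2.83 of the 11 names in the H3K4me1-only class, 7.42 where both marks lay and 7.49 in the H3K4me3-only class. The 17 labelled factors averaged 3.27 per H3K4me1-only region, 9.22 at both marks and 7.81 per H3K4me3-only region. The share of H3K4me1-only regions minus that of H3K4me3-only regions averaged -42.4 percentage points over the 11 names (SD 21.2 between names) and -26.7 points over the 17 factors (SD 17.3). Widths differ between the classes, and with regions weighted to equal width the mean for the 11 names was -37.2 points.

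**Figure D1:**
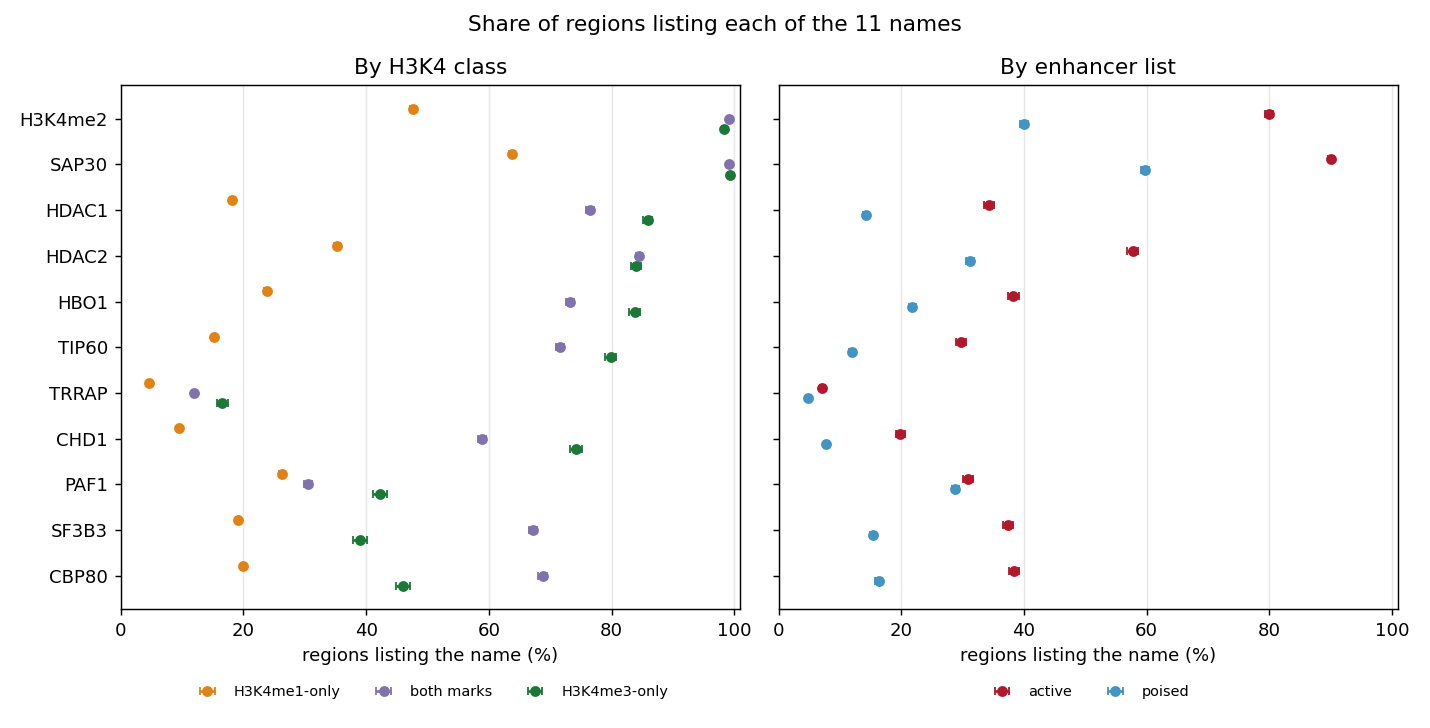
Share of regions listing each name, in percent, by H3K4 class (left) and by enhancer list (right). Points are shares and bars are 95% Wilson intervals. Every name has its lowest share in the H3K4me1-only class, and SF3B3 and CBP80 are the names that lie far higher at regions with both marks than at H3K4me3-only regions.

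H3K4me2 and SAP30 were close to universal wherever H3K4me3 lay. H3K4me2 was listed at 47.6% of H3K4me1-only regions (47.2 to 48.1), 99.1% of regions with both marks and 98.3% of H3K4me3-only regions (98.0 to 98.6). Its median log2 value was 1.09 at H3K4me1-only regions, 2.52 at both marks and 2.13 at H3K4me3-only regions. SAP30, a subunit of the deacetylase complex, was the name listed most often at H3K4me1-only regions, at 63.7% of them. It reached 99.1% at both marks and 99.3% at H3K4me3-only regions, with median log2 values of 1.19, 2.07 and 2.26 in that order of classes. Over all classes, 95% of H3K4me2 regions listed SAP30, against 77.3% of all regions. Conversely, 82.7% of SAP30 regions listed H3K4me2, against 67.2% of all regions.

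The catalytic deacetylases followed the same order at lower shares. HDAC1 was listed at 18.1% of H3K4me1-only regions, 76.5% of both-mark regions and 85.9% of H3K4me3-only regions, a difference of -67.8 points between the first and the last, the widest of the 11. HDAC2 had a higher share than HDAC1 at H3K4me1-only regions, 35.2%, with 84.5% at both marks and 84.0% at H3K4me3-only regions. HDAC1 was thus the rarer of the pair at H3K4me1-only regions. At H3K4me3-only regions the order turned with width: in the narrowest width class HDAC1 was at 44.8% and HDAC2 at 63.4%, and in the widest HDAC1 was at 89.4% and HDAC2 at 78.5%. Median log2 values were 0.96 for HDAC1 and 0.91 for HDAC2 at H3K4me1-only regions, against 1.29 for HDAC1 and 1.08 for HDAC2 at H3K4me3-only regions. Of the 28068 HDAC1 regions 96.8% listed SAP30 and 82.9% listed HDAC2, against 77.3% and 54.0% of all regions. CHD1 and TIP60 regions had similar shares. SAP30 was listed at 97.2% of CHD1 and 96.9% of TIP60 regions, and HDAC2 at 86.1% and 84.4% of them.

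Both acetyltransferases were more often at H3K4me3-only regions. TIP60 was listed at 15.2% of H3K4me1-only regions, 71.6% of both-mark regions and 79.9% of H3K4me3-only regions, with median log2 values of 0.89, 1.12 and 1.20. HBO1 was listed at 23.8%, 73.3% and 83.8% of regions in the same order, with medians of 0.82, 1.04 and 1.18. Listing of TRRAP was rare in every class, at 4.55% of H3K4me1-only, 12% of both-mark and 16.6% of H3K4me3-only regions. Only 5353 regions listed TRRAP in all, while 25502 listed TIP60.

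CHD1 had a difference of -64.7 points between H3K4me1-only and H3K4me3-only regions. It was listed at 9.56% of H3K4me1-only regions, 58.9% of both-mark regions and 74.3% of H3K4me3-only regions, with median log2 values of 0.84, 1.004 and 1.07. PAF1 differed least in level: its median log2 value was 0.84 at H3K4me1-only regions, 0.81 at both marks and 0.83 at H3K4me3-only regions. PAF1 was listed at 26.3% of H3K4me1-only, 30.6% of both-mark and 42.2% of H3K4me3-only regions. No other of the 11 names had a median that was higher in the H3K4me1-only class than in the H3K4me3-only class; PAF1 was higher by 0.0084 on the log2 scale. That is small beside its quartiles of 0.69 and 1.06, and averaged over width classes the difference was -0.07.

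**Figure D2:**
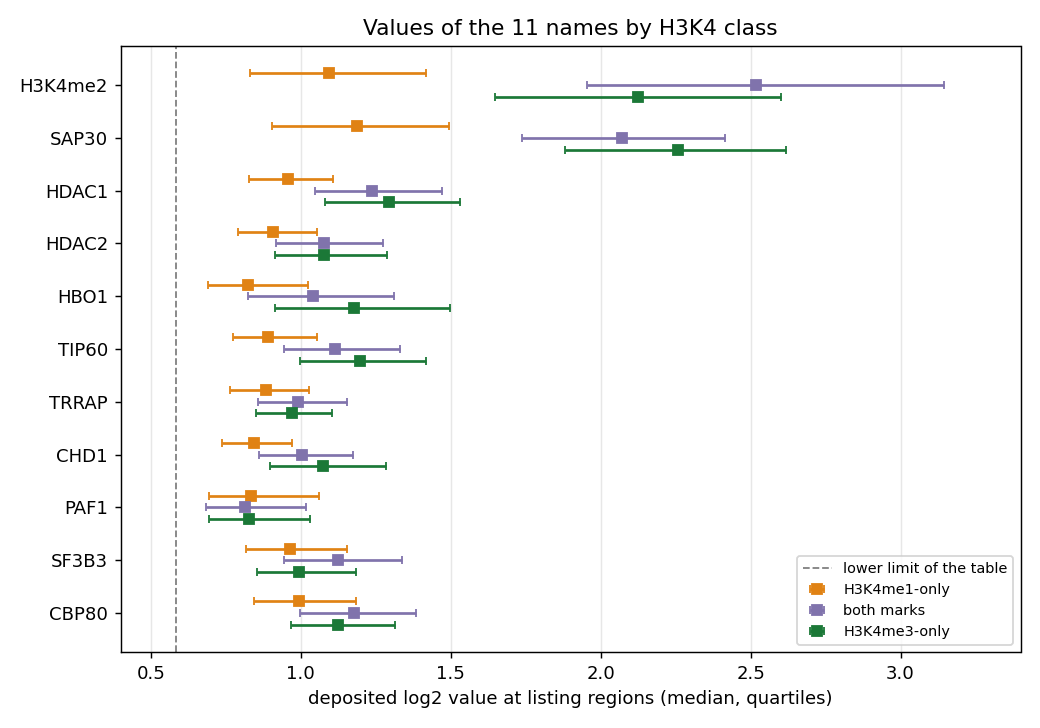
Deposited log2 value of each name at the regions listing it, by H3K4 class. Squares are medians, bars run between the quartiles of regions, and the dashed line is the lowest value the table lists (0.585). H3K4me2 and SAP30 reach medians above 2 where H3K4me3 lies, while PAF1 stays near 0.83 in each class.

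The second comparison set regions with both marks against H3K4me3-only regions, and here the 11 names divided. SF3B3 and CBP80 were listed far more often where both marks lay. SF3B3 was at 67.2% of both-mark regions (66.5 to 67.9) and at 39.0% of H3K4me3-only regions (37.9 to 40.1), a difference of 28.2 points. CBP80 was at 68.8% of both-mark regions and 46.0% of H3K4me3-only regions, a difference of 22.7 points. Both differences held on 20 of 20 chromosomes, and weighting to equal width gave 28.4 points for SF3B3 and 24.8 points for CBP80. Their median log2 values were higher at both marks too, 1.12 against 0.995 for SF3B3 and 1.18 against 1.12 for CBP80. Of the 17 labelled factors, 14 had a higher share at both marks and 3 a lower one. The difference was 31.1 points for SSRP1, 28.9 for PHRF1 and 20.9 for SUR2. For the labelled splicing proteins SRSF1, SRSF2 and PHF5A it was smaller, 6.22, 8.27 and 11.3 points.

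The names of the other complexes pointed the other way or were level. The share at both marks minus that at H3K4me3-only regions was -15.4 points for CHD1, -11.7 for PAF1, -10.5 for HBO1, -9.42 for HDAC1, -8.22 for TIP60 and -4.55 for TRRAP. With regions weighted to equal width the CHD1 difference was -5.09 points, that of HDAC1 -2.25 and that of TIP60 -1.26, so these 3 were smaller. Other ways in which the 2 classes differ were not weighted for, and their part in these differences was not tested. H3K4me2, SAP30 and HDAC2 differed by less than 1 point, and at equal width by 1.15, 0.85 and 3.26 points. The SAP30 difference was -0.11 points without that weighting. Across the 11 names the mean difference was -0.70 points (SD 14.0), against 8.29 points (SD 11.5) for the 17 labelled factors. At equal width the mean of the 11 names turned to 2.72 points.

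The third comparison used the authors' lists of active and poised enhancers, both drawn from H3K4me1-only regions. The files show that the 12492 active regions all have a H3K27ac log2 value of 1 or more and the 19567 poised regions have none that high. Every listed region holds at least 1 of 13 proteins, of which CHD1 is the only 1 among the 11 names. CHD1 is thus part of how the lists were chosen, while the other 10 names are not. The remaining 9760 H3K4me1-only regions lie outside both lists.

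All 11 names were listed more often at active than at poised enhancers, with a mean difference of 19.2 points (SD 11.3 between names) and of 11.6 points (SD 6.02) for the 17 labelled factors. An active region listed 4.64 of the 11 names on average, a poised region 2.52 and a region outside both lists 1.15. H3K4me2 had the widest difference, at 79.9% of active (79.2 to 80.6) and 40.0% of poised regions (39.3 to 40.7). SAP30 was at 90.0% of active and 59.7% of poised regions. HDAC2 was at 57.7% of active and 31.2% of poised regions, and HDAC1 at 34.2% of active and 14.3% of poised regions. The deacetylase subunits were thus more frequent at the more acetylated list. These directions held on 20 of 20 chromosomes for H3K4me2, SAP30 and HDAC1 and on 19 of 20 for HDAC2.

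The acetyltransferases and CHD1 shared that direction. HBO1 lay on 38.3% of active and 21.8% of poised regions, TIP60 on 29.8% of active and 11.9% of poised regions, and CHD1 on 19.9% of active and 7.74% of poised regions. SF3B3 took 37.4% of the active list and 15.3% of the poised list, and CBP80 38.4% of the active and 16.3% of the poised list. The smallest differences were those of TRRAP, 7.12% of active and 4.88% of poised regions, and PAF1, 30.8% of active and 28.8% of poised regions. At equal width the difference was 3.27 points for TRRAP and 4.66 points for PAF1, against 2.25 and 1.99 points unweighted. In log2 value the lists were closer. The median was higher at active enhancers by 0.25 for H3K4me2 and by 0.29 for SAP30, by at most 0.07 for another 8 names, and lower by 0.016 for PAF1.

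Regions outside both lists still held some of the names. SAP30 was listed at 38.2% of them, H3K4me2 at 21.7%, PAF1 at 15.4% and HDAC2 at 14.6%. HBO1 was listed at 9.19% and HDAC1 at 5.20%, while TIP60, SF3B3 and CBP80 lay between 3.07% and 3.50% and TRRAP at 0.61%. CHD1 was listed at 0 of these 9760 regions, which the choice of the lists fixes. Of the 8595 H3K4me1-only regions that listed none of the 17 labelled factors, 8522 lay outside both lists. Their shares are therefore not a separate observation. At least 1 of the 11 names was listed at 4736 of the 8595, 55.1%, most often SAP30 (35.0%) or H3K4me2 (18.5%). Among all H3K4me1-only regions, 6783, 16.2% of the class, listed none of the 11 names.

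Within the H3K4me1-only class, 3 patterns appeared along the level of H3K27ac in shares not weighted to equal width. HDAC1, HDAC2, HBO1, TIP60, CHD1, H3K4me2 and SAP30 were listed at a higher share in each step of H3K27ac, and so was TRRAP at lower shares, 3.47% without H3K27ac and 7.12% at 2 or more. With a limit of log2 1, TRRAP was at 2.35% in the top step and 2.58% in the one below it. HDAC1 went up through 9.38%, 17.2%, 26.8%, 39.0% and 55.4% for regions with no H3K27ac listed, a value below 1, 1 to 1.5, 1.5 to 2, and 2 or more. CHD1 took 4.83%, 7.71%, 14.2%, 21.2% and 35.2% over the same steps. Deacetylase and acetyltransferase shares were thus both higher where H3K27ac was higher.

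SF3B3 and CBP80 did not keep that order. The SF3B3 share was 8.61% without H3K27ac, 23.0% below 1, 35.3% at 1 to 1.5, 36.6% at 1.5 to 2 and 24.3% (22.1 to 26.7) at 2 or more. The CBP80 share peaked earlier, at 38.1% for values of 1 to 1.5, and was 22.1% at 2 or more. The lower share at the top step remained at 24.2% for SF3B3 and 22.1% for CBP80 after weighting to equal width. PAF1 formed the third pattern, with unweighted shares between 24.7% and 30.1% in every step. At equal width the PAF1 share was 21.99% without H3K27ac and 24.53% below 1. It was then 28.13% at 1 to 1.5, 30.81% at 1.5 to 2 and 30.65% at 2 or more. The level PAF1 shares were thus seen only without that weighting. The steps held 22402, 5606, 9034, 3415 and 1362 regions, and their median width was 413 bp without H3K27ac and 1178 bp at 2 or more.

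**Figure D3:**
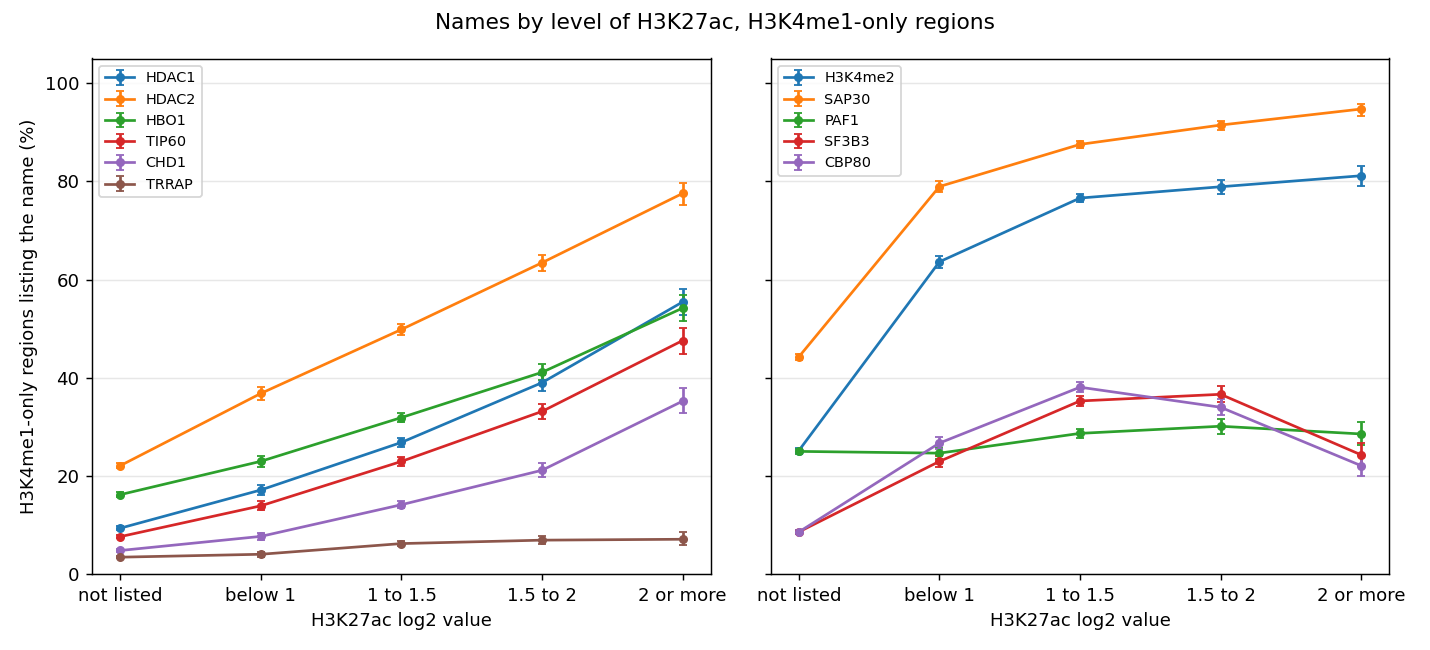
Share of H3K4me1-only regions listing each name, in percent, by the H3K27ac log2 value of the region. Points are shares and bars are 95% Wilson intervals. HDAC1, HDAC2, HBO1, TIP60 and CHD1 are higher at each step. SF3B3 and CBP80 are lower at 2 or more than at 1 to 1.5. PAF1 stays between 24.7% and 30.1% in these shares, which are not weighted to equal width.

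Region width moved with several of these names. Over the 10 width classes of H3K4me1-only regions, from 181 to 235 bp at the narrow end up to 3050 bp or more at the wide end, the TRRAP share was 8.97% in the narrowest and 0.069% in the widest class. PAF1 had 35.0% in the narrowest and 16.2% in the widest class. SAP30 had the opposite order, with 52.4% in the narrowest and 82.3% in the widest, and H3K4me2 had 38.5% and 66.6%. The part of width in the other results was not tested beyond the weighting given beside them.

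Overlap with the 17 labelled factors was then described within each class, as the share of regions with a factor among those listing a name, divided by the factor's share of the whole class. At H3K4me1-only regions this ratio was above 1 in 184 of 187 pairs, with a median of 1.58 and a range of 0.98 to 4.21. The regions, and the number of proteins that any one region carries, are shared by all pairs: the count of the 11 names and the count of the 17 factors per region had a Spearman correlation of 0.68 over the 41819 regions. A ratio above 1 was therefore usual, and the order of the partners differed between names.

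HDAC1, HDAC2 and TIP60 had the same 3 leading partners, BAF155, the ATPase RUVBL2 and the SIN3-associated protein SAP18. At HDAC1 regions SAP18 was listed at 42.2% against 21.5% of the class (ratio 1.96), RUVBL2 at 34.8% against 16.9% (2.06) and BAF155 at 23.2% against 10.1% (2.30). For TIP60, which shares a complex with RUVBL1 and RUVBL2, the ratio was 2.12 with RUVBL2, 1.92 with RUVBL1, 2.04 with SAP18 and 2.5 with BAF155. CHD1 led with BAF155 (2.5), RUVBL2 (2.43) and RUVBL1 (2.31). HBO1 led with BAF155 (4.21), followed by RUVBL2 (1.77) and RUVBL1 (1.67). The HBO1 list contains that of BAF155, which fixes the BAF155 ratio at its upper limit, so this ratio restates the containment.

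SF3B3 and CBP80 had another set of partners. Both led with SSRP1 (part of FACT, which handles histones during transcription), then the Mediator subunit SUR2 and the PHD-finger protein PHRF1. SSRP1 has only 1 labelled library. SSRP1 was listed at 46.7% of SF3B3 regions and 49.0% of CBP80 regions, against 20.5% of all H3K4me1-only regions, ratios of 2.28 and 2.39. PHF5A, which sits in the SF3b complex with SF3B3, had a ratio of 1.76 with SF3B3, below 10 other factors. With a limit of log2 1 BAZ1A came first for SF3B3 at H3K4me1-only regions. The same 3 partners led for both names at both-mark and at H3K4me3-only regions, where the SSRP1 ratios of SF3B3 were 1.18 and 1.75. With the limit of log2 1 at both marks, each kept only SUR2 of these 3, and BAZ1A led for SF3B3 and RUVBL2 for CBP80. H3K4me2 led with SSRP1 (1.69), BAF155 (1.58) and SUR2 (1.55), and SAP30 with SSRP1 (1.38), BAF155 (1.35) and SAP18 (1.35).

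At H3K4me1-only regions without weighting, BRG1, BAZ1A, SMC3 and PHF5A were among the first 3 partners of TRRAP or PAF1 and of no other name. With a limit of log2 1 BAZ1A was also among the first 3 of SF3B3 and CBP80. TRRAP led with the remodelling ATPase BRG1 (2.58), the remodeller subunit BAZ1A (2.51) and RUVBL1 (2.36). Weighting to equal width gave TRRAP ratios of 1.92, 1.91 and 1.97 with these 3. BAF155 then came first for TRRAP with 2.07, followed by RUVBL2 and RUVBL1, which were also the first 3 of CHD1. BRG1 and BAZ1A were then no longer among the first 3 of TRRAP. PAF1 led with the cohesin subunit SMC3 (1.51), BAZ1A (1.5) and PHF5A (1.49), and with SSRP1 and BAF155 its ratio was 1.15 and 1.21. WSTF had the lowest ratio of the 17 factors with each of the 11 names at H3K4me1-only regions, between 0.98 with H3K4me2 and 1.40 with CHD1.

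**Figure D4:**
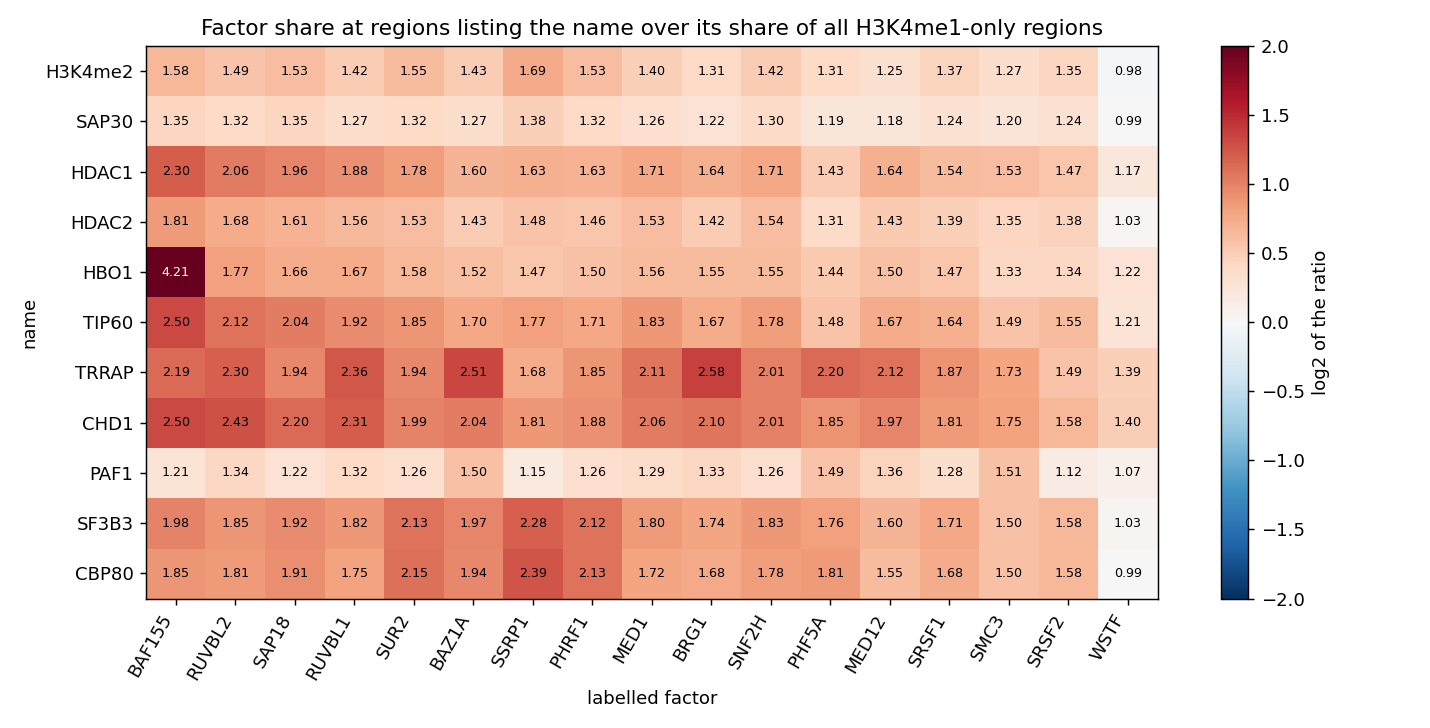
Ratio of the share of regions with a labelled factor among H3K4me1-only regions listing a name to the factor's share of all H3K4me1-only regions. Rows are the 11 names, columns the 17 labelled factors, and colour is the log2 of the printed ratio. HBO1 with BAF155 has the highest ratio (4.21), which is fixed because HBO1 is listed at every BAF155 region. SSRP1 leads for SF3B3 and CBP80, and the WSTF column is the lowest.

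Where regions carried H3K4me3, most names were listed at high shares and the ratios were closer to 1. The median was 1.08 over 187 pairs at both-mark regions and 1.11 at H3K4me3-only regions. BRG1 was the first partner of TRRAP there, with ratios of 1.68 and 1.63, although at equal width MED12 came first at both marks, and with a limit of log2 1 PHF5A came first at both marks and RUVBL1 at H3K4me3-only regions. PAF1 had PHF5A first there, with ratios of 1.33 and 1.43. BAF155 came first for HDAC1, HDAC2, HBO1, TIP60 and CHD1 in all 3 classes, but at equal width it did so at H3K4me3-only regions for HBO1 and for none of the other 4. At equal width BRG1 came first for CHD1 at both marks. With a limit of log2 1 BAF155 was not first for CHD1 in any class, nor for HDAC2 at both-mark or H3K4me3-only regions. For HBO1, which lists all BAF155 regions, the lead of BAF155 is not a separate result.

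Among themselves, the names paired most strongly as CHD1 with TRRAP (ratio 2.54), TIP60 with CHD1 (2.41), SF3B3 with CBP80 (2.39), HDAC1 with CHD1 (2.37) and HDAC1 with TIP60 (2.33) at H3K4me1-only regions. At equal width the highest ratio of any such pair was 2.43, so that of CHD1 with TRRAP was lower there than 2.54. CBP80 was listed at 47.7% of the 7986 SF3B3 regions, and SF3B3 at 45.7% of the 8326 CBP80 regions. Where both were listed, their log2 values had a Spearman correlation of 0.44, as a description over regions. The lowest ratios were those of PAF1, 0.98 with SAP30 and 0.98 with H3K4me2, which were 1.01 and 1.03 at equal width. Over all regions its log2 values had a Spearman correlation of -0.01 with SAP30 and -0.04 with H3K4me2, and its highest with any graded name was 0.29, with SMC3.

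Single regions show how the names accumulate. The region chr19:42330231-42330455 (mm9), with both marks, listed all 11 names and 16 of the 17 labelled factors. It had the highest values in its class of SAP30 (log2 5.29), HDAC1 (3.45) and TIP60 (3.27), beside H3K4me2 at 4.79 and PAF1 at 1.11. All 11 names were listed at 12 H3K4me1-only, 399 both-mark and 338 H3K4me3-only regions. Of the 12 such H3K4me1-only regions, the one with the highest summed value, chr9:110538295-110538531, is on the poised list and has no H3K27ac listed. There H3K4me2 had a log2 value of 2.97, SF3B3 2.24, CBP80 1.76 and SAP30 1.34. The highest PAF1 value of the H3K4me1-only class, 2.76, was at chr15:103078815-103079032, an active region with 8 of the 11 names. The highest HDAC1 and TRRAP values of that class, 2.17 at chr19:16603621-16603843 and 1.88 at chr13:59953869-59954085, were both at poised regions without H3K27ac listed. No annotation of this build was used, so genes at these regions are not named.

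The only labelled libraries of the 11 names, those of H3K4me2 in R1 cells, were set beside the H3K4me2 entries. Since it is not stated whether these libraries entered the region table, the comparison cannot serve as an independent check. At H3K4me1-only regions, 50.8% of those listing H3K4me2 overlapped a R1 H3K4me2 peak, against 32.7% of those not listing it. At H3K4me3-only regions the shares were 96.2% with H3K4me2 listed and 81.5% without it. The values in the R1 peak tables are laid out in another order of chromosomes than the positions, and they were put back in the positions' order. After that the R1 wild-type H3K4me2 enrichment and the H3K4me2 value of the region table had a Spearman correlation of 0.52 over 30708 regions of chromosomes 2 to 19, against 0.00 as deposited. This value was among those that chose the order, with the correlation between peak width and enrichment (0.67 after and 0.0055 before), so it says nothing more of the H3K4me2 entries. For R1 H3K4me1 peaks the width correlation was lower, 0.25 after and 0.0025 before. Their wild-type enrichment had a correlation of -0.27 with the H3K4me2 value after and -0.0063 before. Results on R1 cells depend on this order.

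The last comparison asked how H3K4me1 differed between catalytic-dead and wild-type R1 cells where each name is listed. The peak tables give 1 fold enrichment per line, while the labels give 2 libraries for each, so there is no spread between libraries and no test. The authors call a H3K4me1 peak decreased by a rule of size, and 28.4% of all 82053 peaks are so called. At H3K4me1-only regions, regions with PAF1 differed most from those without it. Median H3K4me1 enrichment at the 7026 peaks on PAF1 regions was 2.35 in catalytic-dead and 3.07 in wild-type cells, a median log2 ratio of -0.45. At the 22630 other peaks it was 1.92 in catalytic-dead and 3.21 in wild-type cells, a median log2 ratio of -0.80.

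Of the peaks on PAF1 regions 28.0% were called decreased, near the 28.4% of all R1 H3K4me1 peaks, and of the others 41.3%. Only 63.1% of PAF1 regions had such a peak, against 72.6% of the other H3K4me1-only regions. The PAF1 regions had the higher log2 ratio on 19 of 20 chromosomes. Since PAF1 regions are narrow, the peaks were also compared within 10 classes of peak width, where the difference was 0.31, against 0.35 for all peaks together. H3K4me2 regions came next, with a median log2 ratio of -0.62 where H3K4me2 was listed and -0.87 where it was not, on 20 of 20 chromosomes. For CHD1 the medians were -0.61 with and -0.73 without it, on 19 of 20 chromosomes. HDAC2 regions lay the other way, at -0.79 with and -0.66 without HDAC2, on 18 of 20 chromosomes. Within classes of peak width the differences were 0.16 for H3K4me2, 0.08 for CHD1 and -0.19 for HDAC2, against 0.25, 0.12 and -0.12 for all peaks together. For the other 7 names the medians with and without the name differed by at most 0.065. When at least 50% of a peak had to lie inside the region, the SAP30 difference was 0.16 and that of HDAC2 -0.07. The quartiles overlapped widely for every name.

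**Figure D5:**
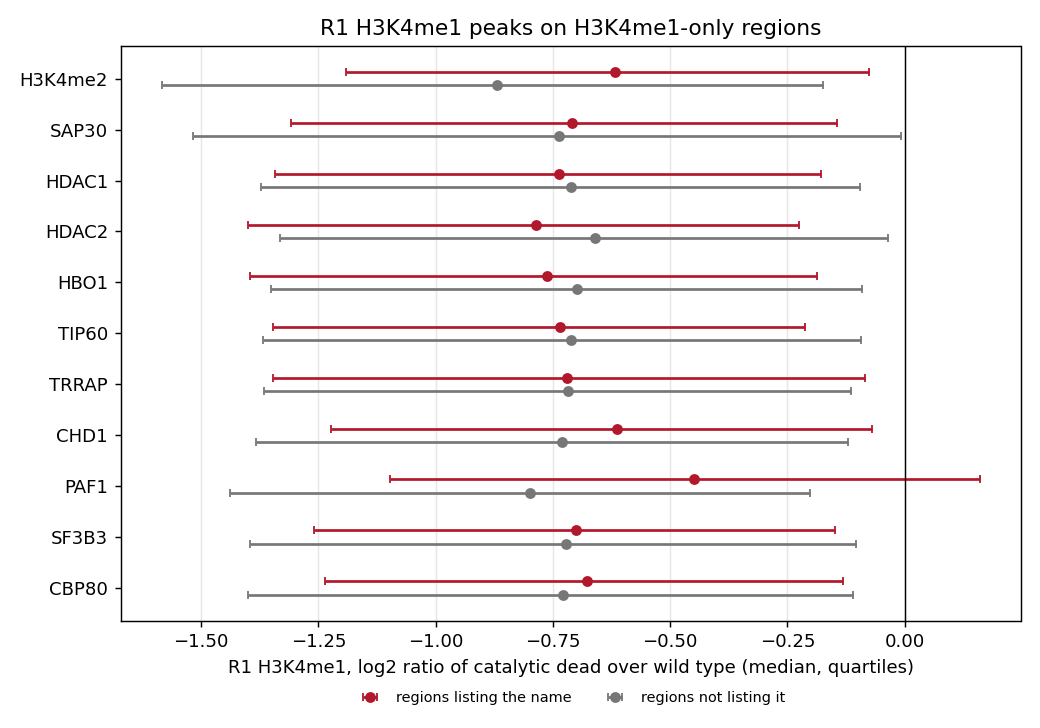
H3K4me1 enrichment of catalytic-dead R1 cells divided by that of wild-type R1 cells, as a log2 ratio, at peaks on H3K4me1-only regions that list each name (red) or do not (grey). Points are medians over peaks and bars run between quartiles. PAF1 and H3K4me2 show the widest gaps (-0.45 against -0.80 and -0.62 against -0.87), and all quartile ranges overlap.

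Of all 53501 R1 H3K4me2 peaks, 23.0% are called decreased by the authors. At H3K4me1-only regions the median log2 ratio of H3K4me2 was -0.59 where PAF1 was listed and -0.92 where it was not, with 32.3% and 47.1% of peaks called decreased. It was -0.74 with and -1.09 without H3K4me2 listed, and whether R1 libraries entered that listing is not stated. For TRRAP it was -0.63 with and -0.85 without, from 551 and 17390 peaks. Only 28.7% of TRRAP regions had such a peak, against 41.9% of the others. The median was -0.71 with and -0.88 without CBP80, and -0.75 with and -0.87 without SF3B3. HDAC2 had -0.92 with and -0.78 without, and HBO1 -0.92 with and -0.82 without. TRRAP, whose H3K4me1 medians differed by -0.0017 with minus without it, had the higher H3K4me2 ratio on 15 of 20 chromosomes, and for CHD1 the H3K4me2 medians were -0.78 with and -0.85 without it. At regions with both marks the H3K4me1 log2 ratio was above 0 at most peaks and higher where a name was listed, for 11 of 11 names. For H3K4me2 and SAP30 only 98 and 86 peaks lay on regions not listing the name, with medians of -0.35 and -0.40. For HDAC1 the median was 0.64 with and 0.25 without, for CHD1 0.68 with and 0.37 without, and for SF3B3 0.61 with and 0.52 without. At H3K4me3-only regions the H3K4me1 medians lay between 1.01 and 1.14 with or without a name, and 6 of the 10 names with at least 50 peaks not listing them were lower where listed. The widest such difference was -0.08, for H3K4me2. These comparisons share the same peaks, so the names are not separate observations.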

How the data were processed

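ChIP-seq was analysed from processed tables of mouse ES cells. Per the submitters' processing notes the build was mm9; they name Bowtie, Picard and MACS2 without versions for 129/Ola libraries, and, for R1 libraries, deepTools (2.5.1 and also 2.5.3), MACS2 2.1.0.20150731, Picard 2.11.0 and the aligner BWA in version 0.7.13-r1126. Their roles and any pooling of replicates are not stated.

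The authors deposited 3 region tables with 1 log2 value per name and region and no replicate values. The authors deposited 3 R1 peak tables with values headed FE in the file headers, which were taken to be fold enrichments (a ratio). Depth is unknown. For H3K4me1 and H3K4me3 the region tables hold a constant, which was read as presence.

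The names were those without a labelled 129/Ola library; names and lists were chosen with earlier results of these data known. Shares with 95% Wilson intervals, medians, co-listing ratios and Spearman correlations were computed with Python 3.11.15, pandas 2.3.3, numpy 2.4.6 and scipy 1.17.1, and the functions were tested on simulated data. Width weighting used 10 classes of equal size over all regions. R1 peaks were assigned to a region by at least 1 bp of overlap. For each name the rule named the region with the highest value per class and the 3 highest and 1 lowest factor by ratio; other values were named for the comparison they belong to. Example regions on chromosome 18 were left out. Alternatives were a limit of log2 1, equal width, autosomes only, H3K27ac instead of the lists, the deposited order of values and an overlap of 50% of the peak. No sequence is printed, because no genome of this build was used.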

Additional observations from a re-analysis of the deposited data

How the results depend on the processing

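No paired analysis was possible because the tables hold 1 value per name and region or per line, and for the same reason no replicate could be left out. Depth is unknown, and Wilson intervals cover only the number of regions. All 11 names stayed lower in the H3K4me1-only class than in the H3K4me3-only class, and higher at active than at poised enhancers, under every alternative run. With a limit of log2 1, the mean share difference was -37.8 points for H3K4me1-only minus H3K4me3-only regions and 12.8 points for active minus poised; at equal width these were -37.2 and 18.6 points. Dividing all H3K4me1-only regions by H3K27ac gave 21.1 points. The mean of both-mark minus H3K4me3-only shares reversed to 2.72 points at equal width, so its sign depends on width; 6 of 11 names were then lower instead of 7. Mean differences of the median log2 value were -0.34 (H3K4me1-only minus H3K4me3-only) and 0.07 (active minus poised), -0.23 and 0.034 with a limit of log2 1, and -0.37 and 0.10 within width classes. With the limit of log2 1, signs of small differences in the median changed for TRRAP (0.012 for H3K4me1-only minus H3K4me3-only, -0.0033 for active minus poised), HDAC2 (-0.0045 for active minus poised) and PAF1 (0.028 for active minus poised, and 0.026 within width classes).

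That limit moved median co-listing ratios with the factors to 2.85 (H3K4me1-only), 1.40 (both marks) and 1.46 (H3K4me3-only), and among the names to 2.41, 1.27 and 1.28; the first partner at H3K4me1-only regions was the same for 7 of 11 names, and for 10 of 11 at equal width. At equal width it was the same for 7 of 11 at both marks and 5 of 11 at H3K4me3-only regions. HBO1 with a value of at least 1 lay at 89.6% of such BAF155 regions. In R1 cells, 6 names had a higher H3K4me1 log2 ratio where listed, and 10 when at least 50% of the peak had to lie inside the region, where HBO1 reversed to 0.010. As deposited, the HDAC2 difference reversed to 0.0018, and those of PAF1 and H3K4me2 were 0.04 and 0.03. Chosen after seeing the data were the width classes of peaks and the H3K27ac steps under equal width and the limit of log2 1. The cause of these changes was not tested.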
